A study of Homo sapiens with 6 samples.

Results

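Removal and addition of zinc were compared with the untreated state for changes in open chromatin that went the same way with both. Open regions were ranked by score in each of 6 ATAC-seq libraries, and the 18887 highest-scoring regions of each library were kept, which was the length of the shortest list. Merging these equal-length lists on chromosomes 1 to 22 and X gave 26225 regions. Of these, 100 regions (0.381%) were called in all 4 treated libraries and in neither control library (treated-only), and 111 regions (0.423%) were called in both control libraries and in no treated library (control-only). The 211 regions of both classes are the subject of what follows, and 11207 regions were called in all 6 libraries.

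All libraries came from wild-type MCF10A cells, an established non-tumorigenic human mammary epithelial line. About 50000 cells per library were held for 30 min in phosphate-free HEPES-buffered Hanks solution (HHBSS), and then received 50 μM tris(2-pyridylmethyl)amine (TPA, a zinc chelator), 30 μM ZnCl2, or no addition (control) for 30 min. There were 2 libraries per condition, and both treatments were compared with the same 2 control libraries. The study calls its replicates biological in its methods and technical in its results, so the p-values below may measure technical spread alone.

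ATAC-seq uses the Tn5 transposase to cut DNA that is not wrapped in nucleosomes, so a called region marks accessible chromatin such as a promoter or an enhancer. Zinc holds together the DNA-binding fingers of a large family of transcription factors. One of them, MTF1, senses a rise in free zinc and activates the metallothionein genes, whose products bind the metal. The comparison asks which open regions changed in the same direction when zinc was removed and when it was added.

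The whole lists held 18887 to 44641 regions on the assembled chromosomes, and the lowest score kept in the equal-length lists ran from 30 to 60. No read counts were used, so the depth of the libraries is unknown. Promoters, taken as the 1000 bp before a gene's start site, were called for 8 to 12 of 20 basal mammary epithelial markers and 4 to 5 of 16 luminal markers. The ranges were 1 to 3 of 15 for immune, 1 to 2 of 11 for fibroblast and 1 to 2 of 10 for endothelial markers. Of all 19198 coding promoters, 7449 to 8766 were called per library, and the marker lists were not tested against that share. No promoter in these 5 lists was treated-only or control-only, beside 0.0886% and 0.177% of all coding promoters, so lists of this size would mostly hold none.

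The central 300 bp of 3 regions of each class are shown, because these were among the highest-ranked members with no repeated piece among 10 tested. Sequences are hg38, plus strand. Capitals mark matches to short motifs searched on both strands, which are descriptions of the letters and not evidence of binding. The treated-only regions at LAPTM5, near TNP1 and in ACOT7 had these centers.
LAPTM5 region, chr1:30756361-30756660: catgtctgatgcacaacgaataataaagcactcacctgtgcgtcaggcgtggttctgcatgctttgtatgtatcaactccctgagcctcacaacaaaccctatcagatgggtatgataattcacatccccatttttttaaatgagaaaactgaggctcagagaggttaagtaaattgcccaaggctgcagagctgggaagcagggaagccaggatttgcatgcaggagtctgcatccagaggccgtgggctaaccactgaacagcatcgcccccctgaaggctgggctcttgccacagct
Region nearest TNP1, chr2:217105761-217106060: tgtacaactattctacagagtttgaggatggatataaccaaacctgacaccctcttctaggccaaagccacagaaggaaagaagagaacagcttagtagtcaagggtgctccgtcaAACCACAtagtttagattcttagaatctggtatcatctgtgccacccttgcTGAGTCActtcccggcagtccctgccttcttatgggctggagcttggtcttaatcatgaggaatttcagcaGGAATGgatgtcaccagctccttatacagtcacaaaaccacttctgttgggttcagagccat
ACOT7 intron region, nearest start site GPR153, chr1:6301351-6301650: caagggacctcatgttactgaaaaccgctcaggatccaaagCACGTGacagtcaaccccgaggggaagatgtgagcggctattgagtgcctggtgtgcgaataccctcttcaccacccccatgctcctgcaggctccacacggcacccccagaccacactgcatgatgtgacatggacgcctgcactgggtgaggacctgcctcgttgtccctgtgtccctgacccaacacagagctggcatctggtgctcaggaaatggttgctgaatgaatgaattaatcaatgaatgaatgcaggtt
The LAPTM5 stretch lay 1263 bp from the start site and held no match, the stretch near TNP1 held AP-1 (TGANTCA), TEAD (GGAATG) and RUNX (TGTGGTT) letters, and the ACOT7 stretch held an E-box (CACGTG). The control-only regions in PHF20, at TMEM185B and in CNTNAP5 had these centers.
PHF20 intron region, nearest start site CNBD2, chr20:35902136-35902435: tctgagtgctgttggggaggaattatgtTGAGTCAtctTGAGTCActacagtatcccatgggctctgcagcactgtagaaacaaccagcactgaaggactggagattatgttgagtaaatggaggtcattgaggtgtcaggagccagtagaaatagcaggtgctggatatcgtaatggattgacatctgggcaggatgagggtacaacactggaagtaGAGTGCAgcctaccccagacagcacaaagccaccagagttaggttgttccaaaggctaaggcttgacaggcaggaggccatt
TMEM185B promoter region, chr2:120223571-120223870: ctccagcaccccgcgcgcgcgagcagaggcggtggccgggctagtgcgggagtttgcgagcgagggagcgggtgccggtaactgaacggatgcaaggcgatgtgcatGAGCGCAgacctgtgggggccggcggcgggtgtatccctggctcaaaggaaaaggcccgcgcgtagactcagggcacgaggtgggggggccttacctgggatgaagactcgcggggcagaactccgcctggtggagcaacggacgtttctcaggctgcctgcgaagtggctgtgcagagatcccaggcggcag
CNTNAP5 intron region, chr2:124877111-124877410: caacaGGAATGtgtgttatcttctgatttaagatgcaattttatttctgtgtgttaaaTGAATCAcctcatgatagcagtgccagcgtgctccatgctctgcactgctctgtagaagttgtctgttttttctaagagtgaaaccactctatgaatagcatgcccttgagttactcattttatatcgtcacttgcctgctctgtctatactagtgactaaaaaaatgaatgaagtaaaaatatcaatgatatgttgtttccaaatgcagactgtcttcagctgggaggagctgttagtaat
The PHF20 stretch held a pair of AP-1 matches and a metal response element core with A (TGCACNC, here on the minus strand). The TMEM185B promoter, with 67.7% GC, held a metal response element core with G (TGCGCNC). The CNTNAP5 stretch held AP-1 and TEAD letters. AP-1 letters thus stood in regions of both classes.

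The number of regions that changed the same way with both treatments was not larger than for other ways of choosing libraries. When each of the 15 pairs of libraries was set against the remaining 4, 8 pairs gave at least 100 regions found only in the other 4 (one-sided exact permutation p = 0.533). Likewise, 9 pairs gave at least 111 regions found only in the pair (p = 0.6), and 9 gave a sum of at least 211 (p = 0.6, exact permutation test). The smallest p that 15 ways allow is 0.0667. The 12 pairs that mix conditions gave 40 to 149 regions in the other 4 only (median 94.5) and 55 to 187 in the pair only (median 119). The control pair sat close to the middle of both ranges.

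Pairs made of 1 treatment gave much larger counts. The TPA pair had 695 regions of its own and lacked 913 that the other 4 libraries shared, and the ZnCl2 pair had 628 of its own and lacked 669. These 2 pairs gave the largest sums of the 15, 1608 and 1297, against 297 for the highest mixed pair. The control pair, with 211, had no set of regions of that size that distinguished it from both treatments.

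**Figure D1:**
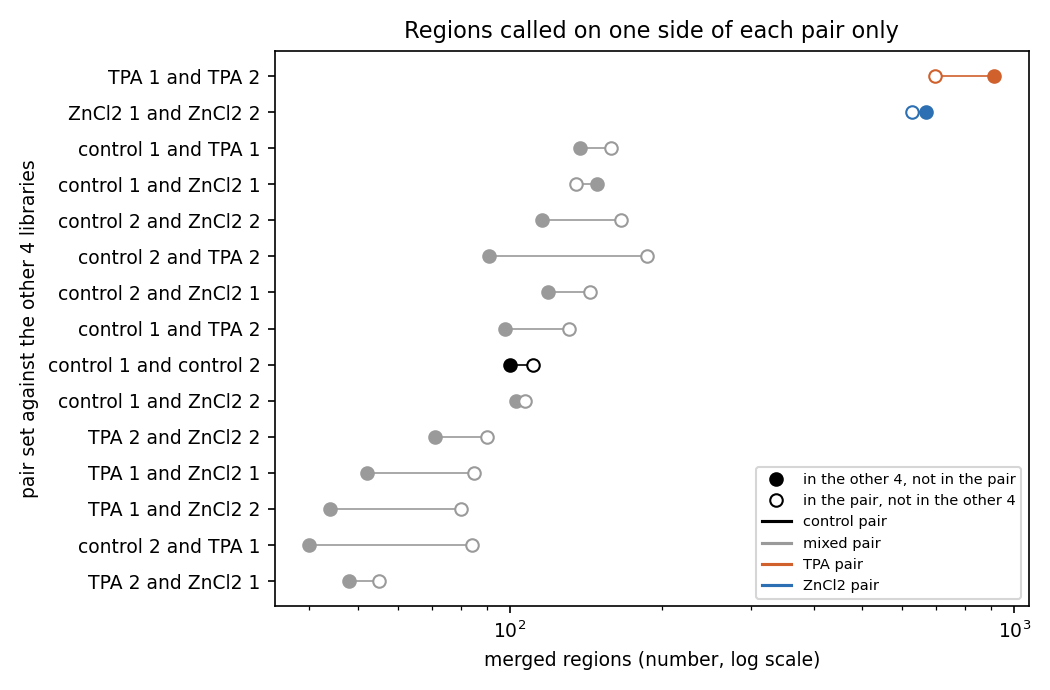
Number of merged regions (log scale) called in all of the other 4 libraries but not in the named pair (filled) or in the pair but not in the other 4 (open), for each of the 15 pairs. The control pair (black, 100 and 111) lies among the 12 mixed pairs (gray), while the TPA and ZnCl2 pairs lie at 628 to 913.

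Most members lay near the end of the equal-length lists. Ranks below count from 1 at the highest score in a library's whole list, and tied scores share a rank. The 100 treated-only regions had median ranks of 13611 and 14101 in the TPA libraries and 16193 and 14806 in the ZnCl2 libraries. In control 1, 74 of the 100 were still in the whole list at a median rank of 20817, and in control 2, 97 were, at a median rank of 20788. Only 3 treated-only regions were absent from both whole control lists.

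The 111 control-only regions had median ranks of 15742 and 16121 in the control libraries. Of these, 98, 106 and 97 were in the whole lists of TPA 1, TPA 2 and ZnCl2 1, at median ranks of 22467, 22257.5 and 22768. The whole list of ZnCl2 2 is itself the equal-length list, so a control-only region had to be absent from it. Only 2 control-only regions were absent from all 4 treated lists. In 87 of the treated-only and 91 of the control-only regions, the weakest library with a call or the strongest without one was within 2000 ranks of the last rank kept. The treated-only regions had a median lowest rank with a call of 17149 and a median best rank without one of 19921, and the control-only regions 17329 and 20334. All 4 treated ranks were in the upper 50% of the equal-length list for 2 treated-only regions, and both control ranks were for 2 control-only regions.

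**Figure D2:**
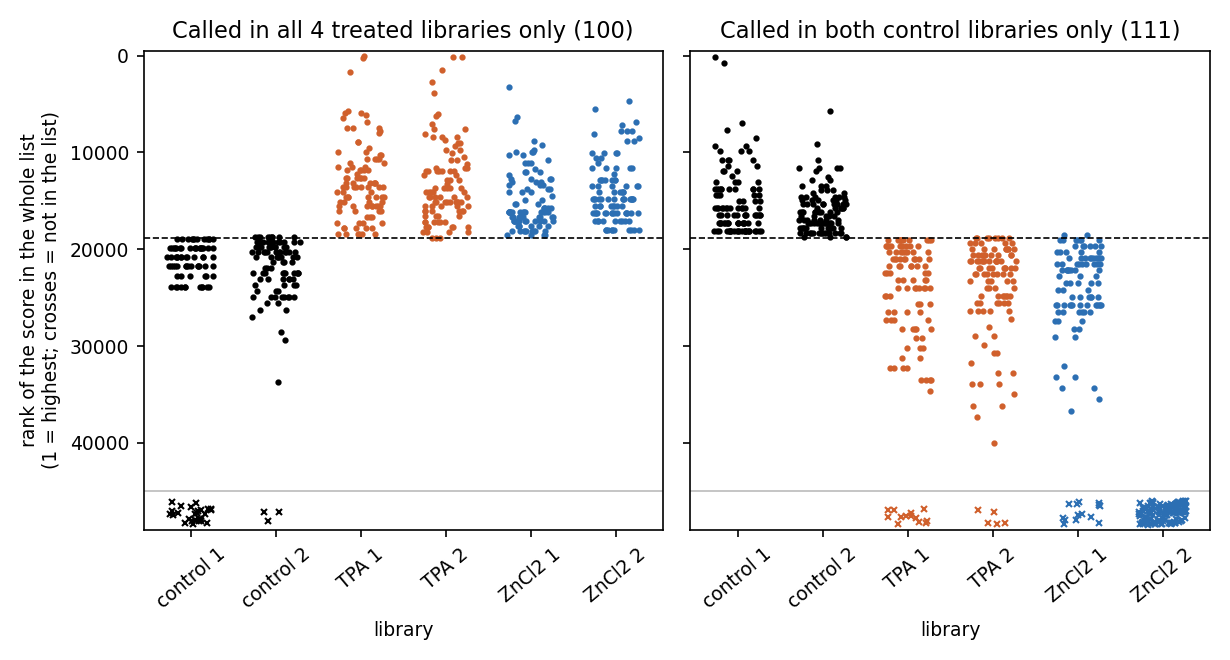
Rank of each member's score within each library's whole list (1 is the highest, crosses are regions not in that list, dashed line is rank 18887), for the 100 treated-only (left) and 111 control-only regions (right). Most points lie close to the dashed line on both sides, and 3 treated-only regions lie among the first 2000 ranks of each TPA library.

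A gap of over 10000 ranks between the weakest library with a call and the strongest without one, or absence from every other whole list, was found for 5 treated-only and 4 control-only regions, a set chosen after the values were seen. Of these 9, 7 had at least 4 of 10 evenly spaced 32-bp pieces that occur more than once in hg38, against 8.23% of all merged regions. In the whole classes, 8 of the 100 treated-only and 6 of the 111 control-only regions had at least 4 such pieces. Reads were longer than 32 bp and mapped in pairs, so a repeated piece does not show that a read could not be placed. The part of repeated sequence in the calls of these 9 regions was not tested.

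The treated-only region with the highest scores was chr10:264101-265450, outside coding genes and 134688 bp from the nearest coding start site, that of ZMYND11, a reader of methylated histone H3. It ranked 80 and 122 in the TPA libraries, 11072 and 7158 in the ZnCl2 libraries, and 23881 and 24907 in the control libraries. It was thus near the top of both TPA lists and further down the ZnCl2 lists, which held 38069 and 18887 regions. Of its 10 pieces, 6 were repeated.

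The second was chr10:47483091-47484670 at the promoter of ANXA8, a calcium-dependent phospholipid-binding annexin. It ranked 1738 and 1532 with TPA and 6311 and 10093 with ZnCl2, was in neither control list, and had 8 repeated pieces. Regions near ZNF705B on chromosome 8 (ranks 7447, 3836, 3249 and 5557) and near NUTM2G on chromosome 9 (ranks 7447, 2754, 6805 and 8466) were also in neither control list and had 6 and 5 repeated pieces. The region in an intron of CFAP99, on chromosome 4, ranked 229 and 115 with TPA, 10781 and 14806 with ZnCl2 and 25553 in control 2, was not in the list of control 1, and had 7 repeated pieces. In ZMYND11, ANXA8 and CFAP99 alike, the TPA libraries ranked above the ZnCl2 libraries.

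Single-copy treated-only regions lay closer to the end of the lists. The region at LAPTM5, which encodes a lysosomal membrane protein of blood cells, spans chr1:30754861-30758160 and ranked 6154 and 7588 with TPA, 13761 and 12843 with ZnCl2, and 22759 and 19219 in the control. The region nearest TNP1, the gene for a spermatid chromatin protein, at chr2:217105261-217106560, ranked 7744 and 6269 with TPA, 16617 and 10093 with ZnCl2, and 21748 and 19219 in the control. The region in an intron of ACOT7, an acyl-CoA thioesterase gene, at chr1:6299497-6303505, ranked 6417 and 8407 with TPA, 12025 and 16272 with ZnCl2 and 24907 in control 2, and was not in the list of control 1. In all 3 regions the groups did not overlap, as the choice of members requires.

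Among the other leading treated-only regions, that in an exon of SNX8, a sorting nexin gene, ranked 5894 to 12372 in the treated libraries and 20788 and 21748 in the control, with 4 repeated pieces. The promoter region of NEMF, which acts on stalled ribosomes, at chr14:49851982-49854521, ranked 10655 and 17149 with TPA, 9252 and 4709 with ZnCl2, and 23881 and 21312 in the control. NEMF was thus higher in the ZnCl2 than in the TPA lists, the opposite order to LAPTM5. The promoter region of ZSCAN21, a zinc-finger factor gene, at chr7:100048821-100050690, ranked 8125 to 12798 in the 4 treated libraries and 21748 and 26262 in the control.

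The remaining treated-only regions at coding promoters had weaker ranks. UNC13D, which acts in granule release by cytotoxic cells, ranked 9594 to 17110 in the treated libraries and 19921 and 23639 in the control. PDCD7, a subunit of the minor spliceosome, ranked 9724 to 16193 against 20817 and 20258. MXRA8, the gene of a receptor for alphaviruses, ranked 10595 to 16617 against 22759 and 23639. The shared promoter region of HECTD3, a ubiquitin ligase gene, and UROD, a heme synthesis gene, ranked 12680 to 16193 and was at 22451 in control 2 alone. SLC37A2, a sugar phosphate transporter gene, ranked 9724 to 17243 and was at 20258 in control 2 alone. ZFP90, a KRAB zinc-finger gene, ranked 14806 to 15328 against 18964 and 22451. Every control rank of these regions lay between 18964 and 23639, after the last rank kept.

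The 2 control-only regions absent from every treated list lay outside coding genes. The first, chr3:96618149-96618508, was 196252 bp from the start of EPHA6, an ephrin receptor gene, and ranked 180 and 5732 in the control libraries, with 4 repeated pieces. The second, chr7:56369921-56371100, was 254094 bp from the start of NUPR2 and ranked 804 and 9106, with 9 repeated pieces. Control 1 ranked both far above control 2.

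The other control-only regions with a wide gap were promoters with few or no repeated pieces. That of PPP6R2, a regulatory subunit gene of protein phosphatase 6, at chr22:50340331-50343680, ranked 9820 and 14559 in the control, 34686 and 28908 with TPA and 25709 in ZnCl2 1. That of ZNF134, a zinc-finger gene, at chr19:57613741-57614980, ranked 14377 and 15328 in the control, 31208 in TPA 1 and 25709 in ZnCl2 1, and was not in the list of TPA 2. At both promoters, each treated library with the region ranked it over 10000 places below the weaker control.

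Further control-only regions lay nearer the last rank kept. The region in an intron of PHF20, a histone reader gene, at chr20:35901601-35902970, ranked 7719 and 14559 in the control, 23186 and 21219 with TPA and 25709 in ZnCl2 1. The TMEM185B promoter region, chr2:120222501-120224940, ranked 13731 and 10732 in the control, 21219 in TPA 2 and 25709 in ZnCl2 1, and was not in the list of TPA 1. The CNTNAP5 intron region, chr2:124876771-124877750, ranked 11352 and 13495 in the control, 19063 and 21915 with TPA and 33154 in ZnCl2 1. A region 534942 bp from POM121L12 on chromosome 7 ranked 10826 and 14559 in the control, 19063 and 21915 with TPA and 32069 in ZnCl2 1. In the PHF20, CNTNAP5 and POM121L12 regions both TPA ranks were nearer to the control than that of ZnCl2 1. The regions nearest PLGLB2 and PLGLB1, a near-identical pair of plasminogen-like genes on chromosome 2, ranked 7005 and 9820 in control 1 and both 16121 in control 2. They had 7 and 8 repeated pieces, and the part of this in their calls was not tested.

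At the other coding promoters of this class, the region shared by COQ4, a coenzyme Q synthesis gene, and TRUB2 ranked 11915 and 11884 in the control, 22467 and 18786 with TPA and 19058 in ZnCl2 1. The region shared by MED25, a Mediator subunit gene, and FUZ, a ciliogenesis gene, ranked 10826 and 15743 in the control and 20334 to 24927 in the treated lists that held it. CBFB, the partner of the RUNX factors, ranked 8478 and 18302 in the control and 18543 to 21915 in those lists. ADGRL1, an adhesion receptor gene, ranked 13731 and 14939 in the control and 20903 in ZnCl2 1, was in neither TPA list and had 4 repeated pieces. ZFTA ranked 13731 and 15328 in the control, 33466 and 39974 with TPA and 22768 in ZnCl2 1. TANGO6 ranked 18101 and 11570 in the control and 19694 to 21915 in those lists, and SP100, a nuclear body gene, ranked 13048 and 17329 in the control libraries, 33466 and 26343 under TPA and 21523 in ZnCl2 1. CBFB, at 18543 in ZnCl2 1, and COQ4, at 18786 in TPA 2, tied with the lowest score kept there and fell outside by genome order. TANGO6 had a treated rank within 1000 places of the last rank kept, and its call in control 1 was itself at the lowest score kept. ZFTA and SP100 were further down both TPA lists.

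Members were also counted in gene groups tied to zinc or to stress. Counting promoters themselves, 17 of 19198 coding promoters (0.0886%) were treated-only and 34 (0.177%) were control-only. No promoter of 11 metallothioneins, 25 zinc transporters with MTF1, 32 immediate early genes, 25 heat shock and chaperone genes, 26 oxidative stress genes or 22 integrated stress and unfolded protein response genes was in either class. The same held for 29 p53 targets, 27 MAPK and growth factor genes and 22 genes of chromatin architecture and DNA methylation. Of 29 NF-kB and inflammatory genes, 1 was control-only: the promoter of CXCL2, a neutrophil chemokine, which ranked 17284 and 15743 in the control, 21003 and 21219 with TPA and 23452 in ZnCl2 1. Of 515 ZNF genes, 2 were control-only, ZNF134 and ZNF148, and none was treated-only. ZNF148 ranked 16477 and 17329 in the control and 20903 to 25663 in the treated lists that held it. At the shares over all coding promoters, lists of 11 to 32 genes would mostly hold none. With at most 2 genes per list, the counts single out no group. Treated-only regions also overlapped an exon of ZNF391 (ranks 11837 to 16193 in treated and 23881 and 23025 in control libraries) and an intron of ZNF407 (8840 to 16640, and 22759 and 19219).

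Metallothionein regions were not members. MT2A was in all 6 equal-length lists, and MT1E was in those of both control and both ZnCl2 libraries but in neither equal-length TPA list. MT1E was in the whole lists of TPA 1 and TPA 2, at ranks 19694 and 25534, after the last rank kept.

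Promoters were a minority of both classes. A promoter of any gene was overlapped by 17.0% of the treated-only and 27.9% of the control-only regions, against 36.4% of all merged and 52.9% of the regions called in all 6 libraries. Coding genes were overlapped by 61.0% and 67.6%, against 67.3% of all merged regions. Mean GC content was 49.2% ± 6.36 (SD over 100 regions) in the treated-only and 47.5% ± 8.26 (SD over 111) in the control-only class, against 49.8% over all merged regions. Median widths were 1940 and 1750 bp, against 2260 bp. These are descriptions over regions of the same 6 libraries, and regions are not replicates.

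The classes of a single treatment covered a wider range. Mean GC content was 45.1% in TPA-only and 55.7% in the regions missing with TPA alone, of which 8.35% and 63.1% were at promoters. It was 54.1% in ZnCl2-only and 43.0% in the regions missing with ZnCl2 alone, of which 24.2% and 8.82% were at promoters. The treated-only and control-only classes lay between these extremes.

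**Figure D3:**
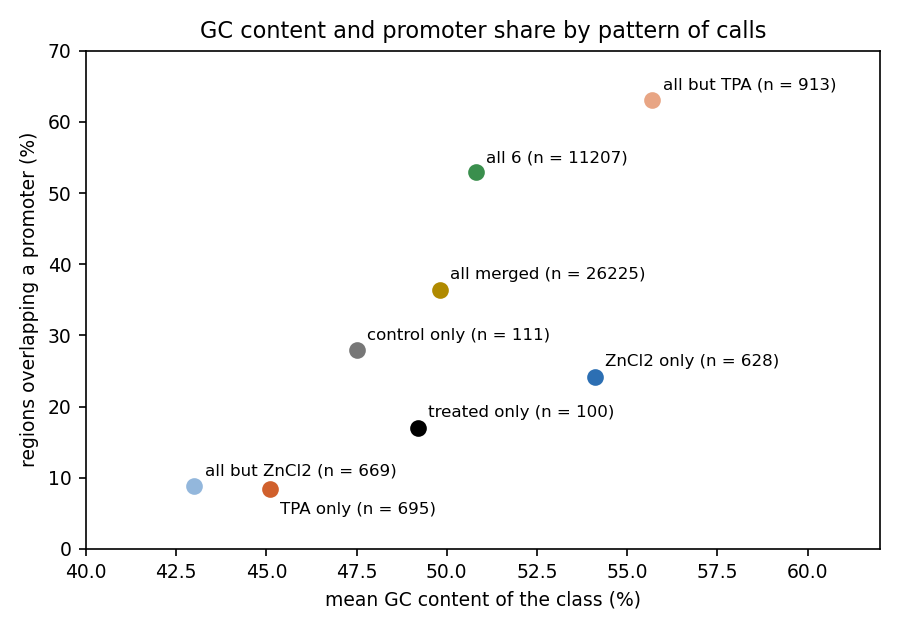
Mean GC content (%) against the share of regions overlapping a promoter (%), 1 point per pattern of calls, with the number of regions. Treated-only (49.2%, 17.0%) and control-only (47.5%, 27.9%) lie between the classes of a single treatment, which reach from 43.0 to 55.7% GC and from 8.35 to 63.1% at promoters.

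Motif letters were counted in the central 300 bp of each region. AP-1 letters, the site of the FOS and JUN factors, were in 30.0% of the treated-only and 28.8% of the control-only regions, against 22.9% of all merged regions. GC boxes (GGGCGG), bound by the SP and KLF zinc fingers, were in 13.0% and 27.0%, against 28.4%. The metal response element core with A was in 18.0% and 10.8%, against 15.5%, and that with G in 9.0% and 14.4%, against 11.4%. The core letters of the CTCF site (AGGNGGCNC) were in 3 and 4 regions, 3.0% and 3.6%, against 8.78%. The heat shock element letters (GAANNTTC) were in 11 and 5 regions, 11.0% and 4.5%, against 7.14%.

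Members were spread over the genome. Each class had regions on 22 of the 23 chromosomes, with at most 15 treated-only regions on 1 chromosome (chromosome 1, 0.446% of its merged regions) and at most 14 control-only regions (chromosome 2, 0.699%). No treated-only region lay on chromosome 21 and no control-only region on chromosome 14.

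The composition of the equal-length lists also did not separate treated from control libraries. In the control, 41.0% and 43.6% of the equal-length list overlapped a promoter. The TPA libraries had 37.1% and 37.6%, and the ZnCl2 libraries 44.4% and 43.0%. The mean was 42.3% ± 1.84 (SD, n = 2) in the control and 40.5% ± 3.7 (SD, n = 4) over the treated libraries. Treated minus control was -1.77 points, with a p of 0.533 in the exact permutation test, which was two-sided. TPA libraries lay below both controls, and both ZnCl2 libraries lay above the control mean, with 1 above both controls.

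Control libraries had mean GC contents of 54.0% and 51.0%. Values were 52.1% and 51.6% for TPA and 53.8% and 52.1% for ZnCl2, so that every treated library lay between the controls. The treated minus control difference was -0.0783 points (exact permutation p = 0.933). AP-1 letters were in 25.6% and 19.5% of the control, 29.2% and 29.5% of the TPA and 19.5% and 19.2% of the ZnCl2 regions, a treated minus control difference of 1.8 points (exact permutation p = 0.533). The controls differed from each other by more than this. The lowest p of all 23 measures computed was 0.4, for E-box letters, and every adjusted p was 1.0.

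**Figure D4:**
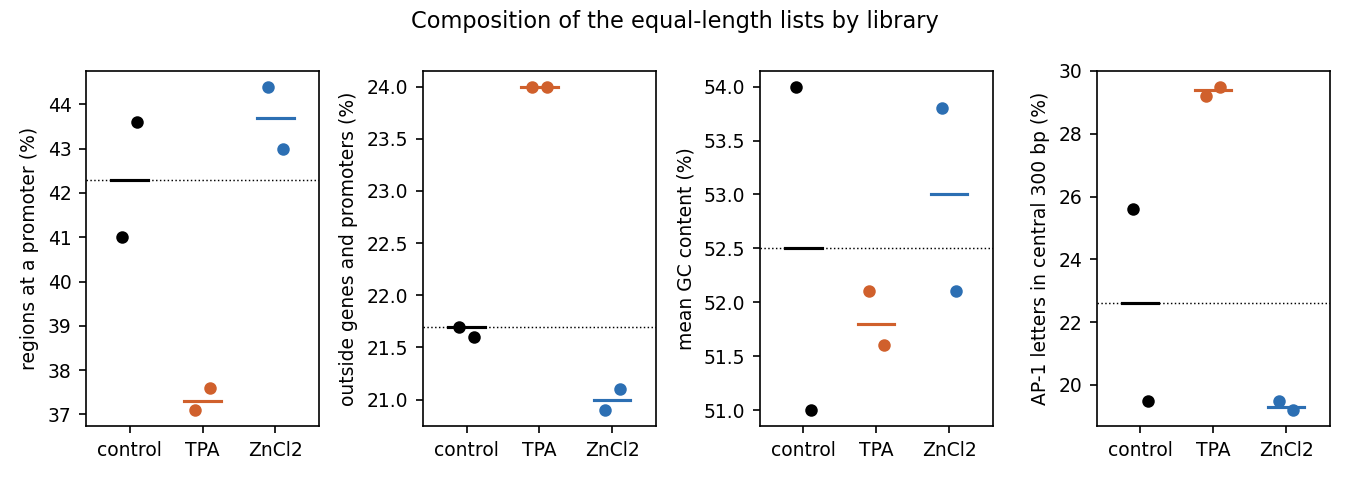
Share of regions at promoters, share outside genes and promoters, mean GC content and share with AP-1 letters (all %) in each equal-length list, with points for libraries, bars for means of 2 and a dotted line at the control mean. TPA and ZnCl2 libraries lie on opposite sides of the dotted line in the panels for promoters, sequence outside genes and AP-1.

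A fit of score ranks found no region that moved with both treatments among those present in all 6 whole lists. All 111 control-only regions were absent from the whole list of ZnCl2 2, and 26 treated-only regions were absent from that of control 1. Regions that a library lacked did not enter the fit, so its counts do not bear on these members. The other 74 treated-only regions were in all 6 whole lists and did enter the fit. Ranks were turned into normal scores, and the mean of both treatments was compared with the control in limma, requiring the same sign in both. Of 15851 regions, 0 were higher (0.0%) and 0 lower (0.0%) at an adjusted p of 0.05, and the smallest adjusted p was 0.773. At an unadjusted p of 0.05, 29 were higher and 123 lower, 0.959% together. Which direction was more frequent turned with single libraries, with 676 higher and 33 lower without control 2, 161 and 69 without ZnCl2 2, and 12 and 940 without ZnCl2 1. On quantile-normalized log2 scores in the same limma fit, 1 region was higher (0.00631%) and 1 lower (0.00631%), with 810 higher and 737 lower at an unadjusted p of 0.05. Each treatment's comparison uses the same control libraries, so the values of both are given side by side below.

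The higher region was the one near ZMYND11. Its quantile-normalized log2 score was higher by 1.83 ± 0.137 (SE), with an adjusted p of 4.5e-06 in limma, 2.75 with TPA and 0.92 with ZnCl2. Its scores were 30 and 49 in the control libraries. They were 245 and 230 under TPA, and 71 and 50 under ZnCl2. It is repeat-rich, as given above. In the fit of ranks its adjusted p in limma was 0.773. The contrast tests the mean of both treatments and not each of them. The same scores made this region a treated-only member, so the p is not separate support for a shared change. The lower region was at PTTG1IP, chr21:44869661-44876010, with a difference of -0.92 ± 0.14 (SE, limma adjusted p = 0.0417), -1.40 with TPA and -0.44 with ZnCl2. Its ranks were 47 and 100 in the control libraries, 1576 and 1658 under TPA, and 130 and 160 under ZnCl2, so it stayed among the strongest regions of every library.

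The regions with the lowest p in the rank fit are given as values. After ZMYND11, the higher ones were near NEMF, ZSCAN21, SNTB1 and TNFRSF1B, with normal-score differences of 1.49, 1.14, 1.34 and 1.19, and none passed the adjusted threshold. In these 4 the TPA and ZnCl2 differences were alike in size, for example 1.23 and 1.04 for ZSCAN21. The lower ones were near TTLL10, CWH43, EFCAB12, NAAA and SYT7, with differences from -1.58 to -1.18, none past the threshold. TTLL10 had -2.77 with TPA and -0.15 with ZnCl2, and SYT7, a calcium sensor gene of vesicle release, -1.88 and -0.65. At EFCAB12 the ZnCl2 difference (-1.66) exceeded the TPA difference (-1.05).

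Promoter regions of the gene groups gave no call in the rank fit. The median normal-score difference over all 6984 regions at coding promoters was -0.1, and it was 0.1 for 2 metallothionein, -0.11 for 16 zinc transporter and MTF1, -0.08 for 28 immediate early, -0.05 for 18 heat shock, -0.16 for 17 oxidative stress and -0.07 for 16 NF-kB regions. The medians were 0.02 for 20 stress response, -0.16 for 23 p53 target, -0.2 for 12 MAPK and growth factor, -0.22 for 15 architecture and methylation, and -0.11 for 224 ZNF regions. For the marker lists they were -0.07 for 8 basal, -0.1 for 4 luminal and 0.09 for 2 immune regions, with 2 fibroblast regions at -0.62 and 1 endothelial region at -0.03. Over all regions fitted the median was -0.065, with 0.11 for TPA and -0.185 for ZnCl2, and on the log2 scale it was 0.004. At an unadjusted p of 0.05, 1 zinc transporter, 1 fibroblast and 3 ZNF regions were lower and none in these lists was higher, beside 79 lower and 6 higher of the 6984 regions at all coding promoters. On log2 scores the lists did hold higher regions at that p: 7 ZNF, 2 stress response and 1 zinc transporter region. Lower on that scale were 19 ZNF, 2 immediate early, 2 oxidative stress and 2 MAPK and growth factor regions. So were 1 zinc transporter, 1 stress response, 1 NF-kB and 1 fibroblast region. Over all coding promoters 175 were higher and 481 lower on that scale.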

How the data were processed

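ATAC-seq was performed on 2 control, 2 TPA and 2 ZnCl2 libraries of MCF10A cells. Adapter trimming with BBDuk, paired mapping to hg38 by HISAT2 (2.1.0) and calling of open regions per library by HMMRATAC were done by the authors, and the version of HMMRATAC is not given in the sources used here. The deposited lists hold each region's position and a score from the authors' caller, whole numbers of at least 30. Pooled libraries were sequenced more than once, per the labels. Their later blacklist and read-count steps were not repeated, and depth is unknown.

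Scores served as ranks within a library. The highest 18887 regions per library, with ties taken in genome order, were merged where they overlapped or touched, and 1 bp of overlap made a call. Counts were compared by the exact permutation test over the 15 ways to choose 4 of 6 libraries, and library values by the two-sided exact permutation test of means. Ranks over regions in all 6 whole lists were fitted with limma 3.58.1 (R 4.3.3) on group means, with Benjamini-Hochberg adjustment. Genes were those of GENCODE 44 that RefSeq also lists (40530). Repeats were counted as exact copies in hg38 of 10 pieces of 32 bp per region. Analyses used Python 3.11.15 with pandas 2.3.3, SciPy 1.17.1 and pysam 0.24.0.

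Named regions were the 10 of each class with the highest mean percentile and, again, the 10 at coding promoters, the 5 with the lowest p in each direction of the fit, and list genes at a member. Members, lists and rules were chosen with earlier results of these data known.

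On simulated data, 69.0% of 200 treated-only and 71.5% of 200 control-only regions planted among 26225 were recovered, with 186 and 195 others called. Planted regions carried the calls of their class, with a small fixed chance of error per call. The other regions kept their number of calls, in libraries drawn at random. That recovery follows from the error chance, so it checks the counting and does not measure sensitivity in these data. The limma fit recovered 82.5% of 200 regions shifted by 3 normal-score units, and 96.0% of 200 shifted by 1.5 on the log2 scale, among 15851. Alternatives were other list lengths, ties, overlap, contigs, promoter and GC windows, score scales, each library left out and the replicate number as a block.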

Additional observations from a re-analysis of the deposited data

Results flagged for a closer look

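In several measures of the equal-length lists, both TPA libraries lay on one side of the control mean and both ZnCl2 libraries on the other, and the difference between the treatments was not tested for them. The share of regions at promoters had a TPA minus ZnCl2 difference of -6.33 points, from -4.94 for TPA and 1.39 for ZnCl2 against control. With promoters of coding genes alone the difference was -5.69, and with 500 bp on each side of the start site -6.27. The share outside genes and promoters differed by 2.99 points, and mean GC of the central 300 bp by -2.52.

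AP-1 letters differed by 10.0 points (6.81 for TPA and -3.21 for ZnCl2 against control). CCAAT box, TEAD, RUNX and FOX letters were also more frequent with TPA, by 3.02, 1.97, 1.32 and 0.765 points, and the metal response element core with G was less frequent (-2.06). These shares are not independent of each other.

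By limma on quantile-normalized log2 scores, 3709 of 15851 regions (23.4%) differed between TPA and ZnCl2 at an adjusted p of 0.05. For 2 regions the mean of both treatments differed from control, with the same sign in each treatment. Their differences were larger with TPA than with ZnCl2 (2.75 and 0.92 near ZMYND11, -1.4 and -0.44 at PTTG1IP). On ranks within the whole list no region passed for TPA against ZnCl2, and 2573 (16.2%) had an unadjusted p of 0.05 or less. That count of 0 depended on the setting: it was 1288 over regions called in all 6 equal-length lists, 1856 without ZnCl2 1, 46 with the replicate block, 22 without control 1, 22 without control 2, 3 without TPA 1, and 1 without TPA 2 or ZnCl2 2.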

How the results depend on the processing

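The treated-only, control-only and summed counts (100, 111 and 211) depended on list length. They were 8, 23 and 31 with all regions of each library, 10, 29 and 39 with the upper 50% of each list, and 3, 2 and 5 when a region had to be absent from the whole list. With the 9000 highest-scoring regions they were 62, 74 and 136. Leaving out ties, asking for 50% coverage, adding all contigs, and leaving out repeat-rich regions (chosen after seeing the data; 93, 107 and 200) kept them within 1.5 times. The exact permutation p was at least 0.4 in every setting that gave one. With each library left out, fewer conditions had to be met, and the counts ran from 143 to 493, 180 to 581 and 323 to 1074, the largest without control 2. The replicate numbers did not pair the libraries (correlations of same-numbered deviations 0.132, -0.181 and -0.0179). The replicate block, by within-number comparison, gave 866.5, 1047 and 1913.5, since 3 libraries rather than 6 set each count.

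The promoter share difference turned to 0.567 with all regions and ran from -3.07 to -0.471 with each library left out. The GC difference turned to 0.133 with all regions and ran from -1.55 to 1.39, being positive without control 1, TPA 1, TPA 2 or ZnCl2 2. Regions called for the mean of both treatments, with the same sign in each, numbered 2 on log2 scores and 1 with the replicate block. The region near ZMYND11 was called without control 2, TPA 1 or TPA 2, and one near SPDYE17 also without control 2. In the same rank fit the block also moved the calls for TPA against ZnCl2 from 0 to 46 and for TPA against control from 0 to 3, and left ZnCl2 against control at 0. Of 34 named regions, 5 remained members with all regions, 12 with the upper 50%, 3 with the 9000 highest-scoring and 20 with 50% coverage. Recovery of shared changes smaller than those planted was not tested.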
